A study of Mus musculus with 6 samples.

Results

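The core circadian clock loop is made of 8 genes here: the activators Arntl (also called Bmal1), Npas2 and Clock, and the repressors Per1, Per2, Per3, Cry1 and Cry2. A gene entered by its symbol alone, through a probe set annotated to exactly 1 symbol, and 7 of the 8 were measured in this way among 22180 genes in all. The only annotated probe set of Per2 carries 2 symbols, as does a second probe set of Cry2, and neither was analysed here. Each of the 7 genes had a single qualifying probe set, so the only step of the rule that uses measured values, a probe set chosen by its highest mean over the 6 arrays, had no choice to make.

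The lungs came from 6 CD1 mice, an outbred strain, all 10 weeks old, with an array for each mouse. Of these, 3 were intact mice that had a sham procedure. The other 3 were preconditioned mice, ventilated at low pressures for 90 minutes 1 week before the lung was sampled. Total RNA from whole lung was labelled and read on a 1-colour array, and all values are on the log2 scale, where a difference of 1 is a 2-fold change. The labels give no hour of the day for tissue sampling, and no sex, litter or ventilator setting beyond these.

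The clock is a feedback loop of transcription. The basic helix-loop-helix protein BMAL1, made from Arntl, pairs with CLOCK or its paralog NPAS2, binds E-box sequences and drives the Per and Cry genes, whose proteins return to the nucleus and silence that pair until they are degraded. A second loop runs through REV-ERB and ROR nuclear receptors, which repress and activate Arntl, and through the D-box factors DBP, TEF, HLF and NFIL3. In peripheral tissues such as the lung, Arntl and Npas2 transcripts peak in a part of the day opposite to that of Dbp and of most Per transcripts.

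The promoters below are shown because the 4 measured repressor genes had differences of unlike sign between the groups. They are the 250 bases before the start of each gene, 5′ to 3′ on the gene's strand, from RefSeq on GRCm38.p6, in lower case with matches to the searched motifs in capitals. The window of Per3 is chr4:151044666-151044915 on the minus strand, that of Per1 is chr11:69098699-69098948 on the plus strand (the first of its 2 listed starts), that of Cry1 is chr10:85185055-85185304 on the minus strand, and that of Cry2 is chr2:92434070-92434319 on the minus strand.
Per3: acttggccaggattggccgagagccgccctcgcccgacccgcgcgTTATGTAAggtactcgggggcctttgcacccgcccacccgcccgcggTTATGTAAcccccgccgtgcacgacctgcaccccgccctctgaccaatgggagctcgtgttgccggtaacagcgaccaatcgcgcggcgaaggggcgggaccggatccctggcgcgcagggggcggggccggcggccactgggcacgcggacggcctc
Per1: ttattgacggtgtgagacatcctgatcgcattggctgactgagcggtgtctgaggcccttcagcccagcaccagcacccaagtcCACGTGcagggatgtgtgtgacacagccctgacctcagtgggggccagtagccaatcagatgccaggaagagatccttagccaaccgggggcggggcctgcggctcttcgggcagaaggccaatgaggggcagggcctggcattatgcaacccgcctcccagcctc
Cry1: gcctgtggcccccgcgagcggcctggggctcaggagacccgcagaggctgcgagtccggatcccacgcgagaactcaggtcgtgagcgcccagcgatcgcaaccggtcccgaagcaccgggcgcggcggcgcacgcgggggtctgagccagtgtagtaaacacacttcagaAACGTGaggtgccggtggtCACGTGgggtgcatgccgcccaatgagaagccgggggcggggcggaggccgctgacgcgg
Cry2: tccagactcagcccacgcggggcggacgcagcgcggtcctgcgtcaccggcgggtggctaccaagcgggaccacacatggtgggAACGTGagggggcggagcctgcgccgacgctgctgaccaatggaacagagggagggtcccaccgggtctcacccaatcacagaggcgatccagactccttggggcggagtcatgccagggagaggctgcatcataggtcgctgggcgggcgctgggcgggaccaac

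In these windows Per3 holds the D-box TTATGTAA at 2 places, which begin 205 and 158 bases before the start. The motif was found in 0.938% of the 32851 RefSeq promoter windows of the same full length (250 bases before to 50 after a start), and 7 of all those windows hold it at 2 or more places. Per1 holds the E-box CACGTG 166 bases before its start and Cry1 holds it 60 bases before its start, against 7.15% of all windows. The related letters CACGTT, on the opposite strand (printed as AACGTG), begin 79 bases before the start of Cry1 and 166 bases before that of Cry2 (4.68% of all windows). RefSeq windows were matched for 7 of the 8 symbols, with 11 windows in all because of alternative starts, and none was listed for Per2.

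In the activator Arntl, the letters TAGGTCA, a binding sequence of ROR and REV-ERB receptors, lie from base 31 to base 37 after the second of its 2 listed starts, at chr7:113207531-113207557 on the plus strand with 10 bases on either side. The motif occurs in 2.61% of windows, and it is the only match of these motifs in the windows of the 3 activators.
Arntl: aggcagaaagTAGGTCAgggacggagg

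The searched motifs GGGTCA and TGACGTCA had no match in the 11 windows of the clock genes, against 13.7% and 1.79% of all windows. Both strands were searched for every motif, a palindrome was counted once, and no match overlapped another. A match is a run of letters and not evidence of binding in these lungs.

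Lung was checked against its defining transcripts. Group means of the markers of alveolar type 2 cells lay between 9.78 and 13.29, those of club cells between 10.94 and 13.57 and those of capillary endothelium between 8.51 and 11.90, against a median of 5.95 over all genes. Alveolar type 1 markers had group means between 7.70 and 11.93. Array medians over all deposited probe sets lay between 5.32 and 5.40. Heart muscle markers were also present. Their mean level was 8.31, 8.13 and 8.67 in the intact mice and 5.89, 9.73 and 7.80 in the preconditioned mice, so that these values spread most among preconditioned mice. Each array is a biological replicate by its label, and precision is limited by having 3 in each group.

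Preconditioned lungs, taken 1 week after low-pressure ventilation, were set against intact lungs. The hour of tissue sampling is not given. Its part in the differences was not tested and cannot be told apart from that of ventilation. All 3 activators had lower means in preconditioned lungs, and of the repressors Per1 and Cry1 had lower means while Per3 and Cry2 had higher ones. Over all genes, 47.3% had a lower and 52.7% a higher mean. In limma, fitted on all 22180 genes with Benjamini-Hochberg adjustment, none of the 7 passed an adjusted p of 0.05, and the adjusted p ranged from 0.0965 to 0.301. Of all genes tested, 21 passed (0.0947%), 13 of them lower (0.0586%) and 8 higher (0.0361%). At an unadjusted p under 0.05 there were 6 of the 7 clock genes, 4 lower and 2 higher, beside 19.1% of all genes (11.6% lower and 7.53% higher). That larger set split into 2569 lower and 1670 higher genes, or 3337 lower and 1028 higher with each array centred on its median.

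**Figure D1:**
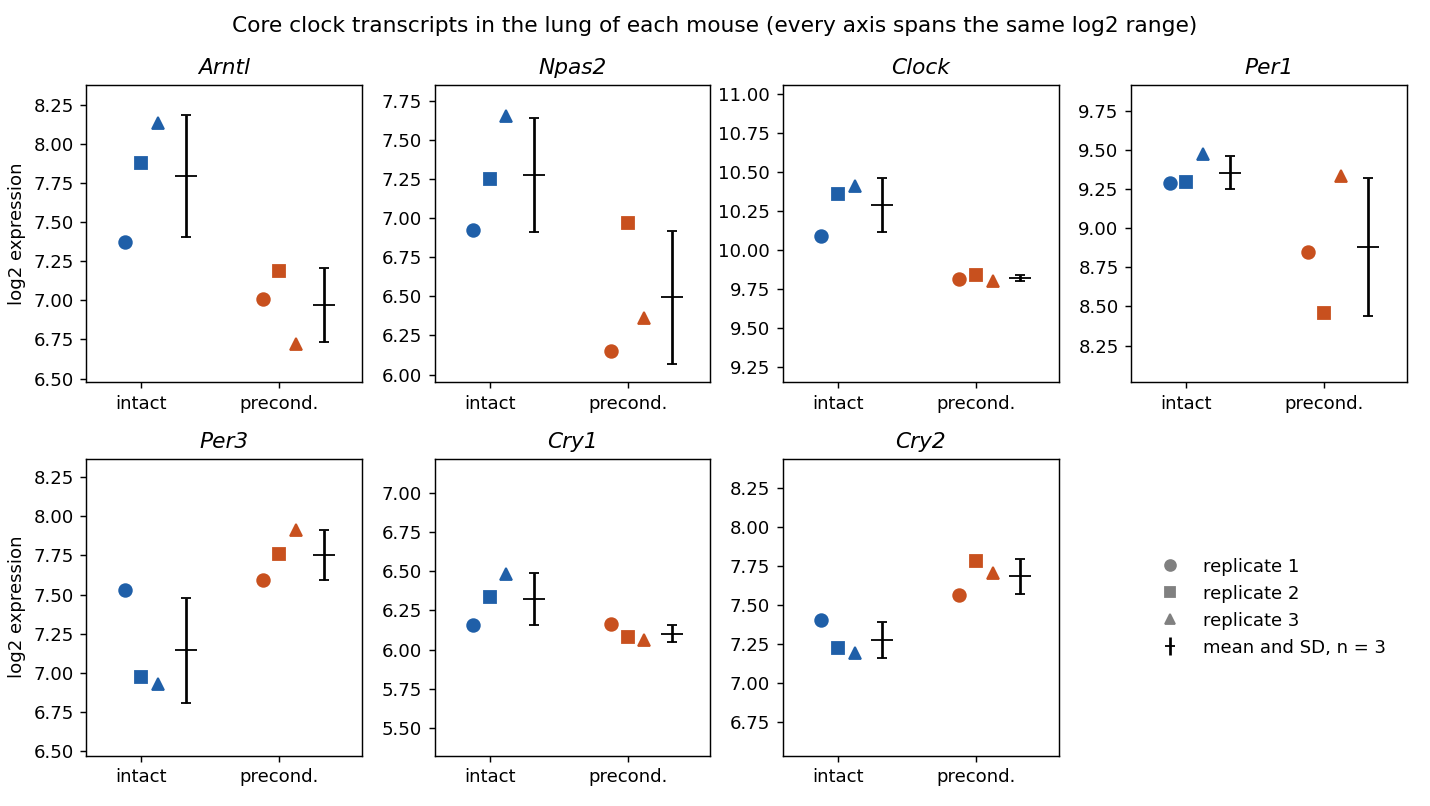
Log2 expression of the 7 measured core clock genes (vertical axes, all spanning the same range) in 3 intact and 3 preconditioned lungs. Symbols mark the replicate and the bar gives the mean and SD. The groups lie apart for Arntl and Clock, lower after preconditioning, and for Per3 and Cry2, higher after preconditioning.

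Arntl encodes BMAL1, the partner that both CLOCK and NPAS2 need. Its level was 7.37, 7.88 and 8.14 in intact replicates 1, 2 and 3 and 7.01, 7.19 and 6.72 in preconditioned replicates 1, 2 and 3. Every preconditioned mouse lay below every intact mouse, with 0.19 between the nearest ones. The log2 difference was -0.82 (SE 0.20, adjusted p = 0.104), from a mean of 7.80 ± 0.39 to 6.97 ± 0.24 (SD, n = 3), or 1.77-fold lower.

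Clock encodes the protein that pairs with BMAL1 to bind E-boxes. Intact lungs had levels of 10.09, 10.36 and 10.41 and preconditioned lungs 9.81, 9.84 and 9.80. The groups did not overlap, and the preconditioned mice differed little from each other, with an SD of 0.02 against 0.17 in intact mice. The log2 difference was -0.47 (SE 0.11, adjusted p = 0.0965), which was the lowest adjusted p of the 7 genes.

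Npas2 encodes a paralog of CLOCK that can take its place. It stood at 6.93, 7.25 and 7.65 in intact lungs and at 6.15, 6.97 and 6.36 in preconditioned lungs, a log2 difference of -0.78 (SE 0.24, adjusted p = 0.148). The groups overlapped, since preconditioned replicate 2 lay above intact replicate 1. Preconditioned replicate 2 was also the mouse with the most heart muscle RNA (9.73) and preconditioned replicate 1, the lowest in Npas2, the one with the least (5.89). The part of heart tissue in the Npas2 values was not tested. Without preconditioned replicate 2 the difference was -1.02, and without intact replicate 3 it was -0.60.

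The Per genes encode the repressor proteins whose build-up and decay set the pace of the loop, and the differences of the 2 measured members had opposite signs. Per3 was at 7.53, 6.97 and 6.93 in intact lungs and at 7.59, 7.76 and 7.91 in preconditioned lungs. All preconditioned mice lay above all intact mice, but intact replicate 1 lay 0.06 under the lowest of them. The log2 difference was 0.61 (SE 0.17, adjusted p = 0.129), or 1.53-fold higher.

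Per1, which is also induced quickly by glucocorticoids and by cyclic AMP signalling, was at 9.29, 9.30 and 9.48 in intact lungs and at 8.85, 8.46 and 9.34 in preconditioned lungs. The intact values lay close together, with an SD of 0.11, and the preconditioned ones spread over an SD of 0.44, so that preconditioned replicate 3 fell among the intact mice. The log2 difference was -0.47 (SE 0.20, adjusted p = 0.250). It was -0.26 without preconditioned replicate 2, the lowest mouse, and -0.70 when preconditioned replicate 3 was left out.

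The Cry genes encode cryptochromes, the repressors that bind CLOCK and BMAL1 directly, and their differences also had opposite signs. Cry2 was at 7.41, 7.22 and 7.19 in intact lungs and at 7.56, 7.78 and 7.71 in preconditioned lungs. The groups lay apart by 0.16, and the log2 difference was 0.41 (SE 0.10, adjusted p = 0.110). Cry1 was at 6.15, 6.33 and 6.48 in intact lungs and at 6.16, 6.08 and 6.06 in preconditioned lungs. Intact replicate 1 fell among the preconditioned mice, and the log2 difference was -0.22 (SE 0.11, adjusted p = 0.301), the smallest in size of the 7. Without intact replicate 3 it was -0.14.

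Intact and preconditioned mice lay fully apart for 4 of the 7 genes, namely Arntl and Clock below and Per3 and Cry2 above. Over all genes the groups did not overlap for 24.7%, with 13.0% lower and 11.7% higher in preconditioned lungs. Lung is a mixture of cells, and in such samples fewer cells of a type and less RNA per cell cannot be told apart.

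Intact replicate 1 was the intact mouse closest to the preconditioned mean in 7 of 7 clock genes. The same held for 49.4% of all genes and for 68.8% of the 4239 genes at an unadjusted p under 0.05, so this mouse was nearest more often than the others in the whole table. Leaving it out gave log2 differences of -1.04 for Arntl (adjusted p = 0.0204), -0.57 for Clock (0.0228), 0.80 for Per3 (0.0194) and 0.48 for Cry2 (0.0487), all in limma over all genes. Leaving out any of the other 5 arrays left none of the 7 past the threshold. Without intact replicate 1, 4 of the 7 clock genes passed, with 1228 genes over the whole table. It was the intact mouse nearest to the preconditioned mean in all 7, so leaving it out widened each difference by construction. The calls of these 4 genes are thus no separate support for the differences. With array quality weights, which gave each array its own precision, 5 of the 7 passed, these 4 and Npas2, beside 1125 genes in all.

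**Figure D2:**
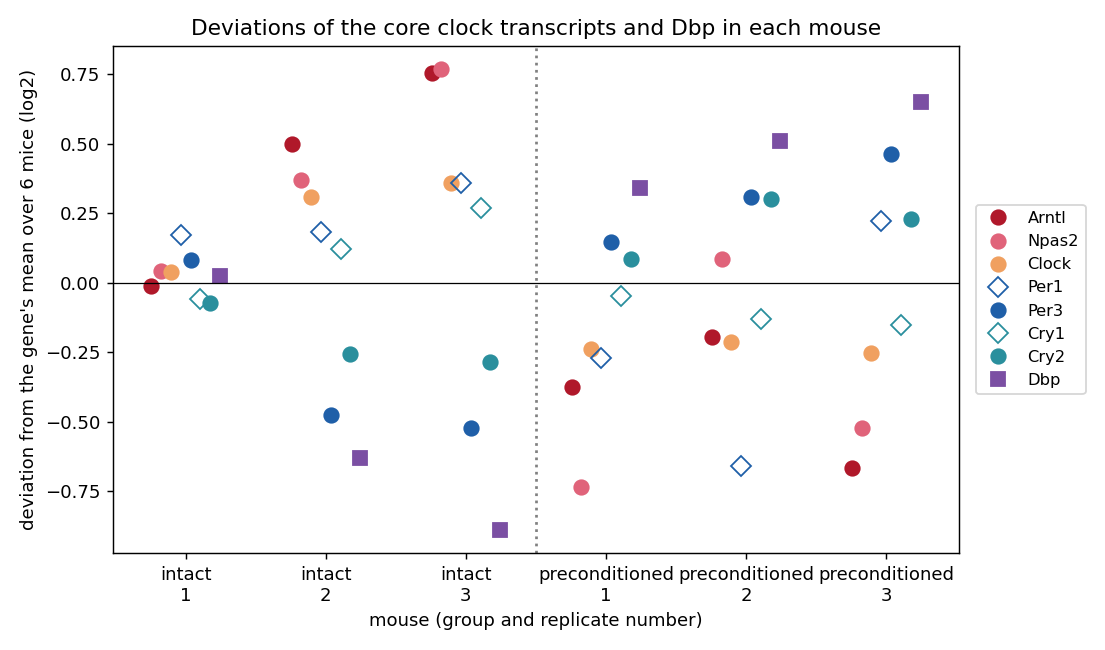
Deviation of each core clock gene, and of the output gene Dbp, from its own mean over the 6 mice (vertical axis, log2) in each mouse (horizontal axis). The activators lie high in intact replicates 2 and 3, where Per3, Cry2 and Dbp lie low, intact replicate 1 lies near 0 for all but Per1, and Arntl and Clock lie below 0 in each preconditioned mouse.

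Levels of different probe sets cannot be set against each other, so the balance of the arms was described by deviations, each gene taken relative to its mean over the 6 mice. Arntl minus Per3 was -0.09, 0.97 and 1.27 in the intact mice and -0.52, -0.51 and -1.13 in the preconditioned mice. Intact replicate 1 again lay between the other intact mice and the preconditioned ones. The mean of the 3 activators minus that of the 4 measured repressors was -0.01, 0.50 and 0.67 in intact mice and -0.43, -0.06 and -0.67 in preconditioned mice. It was lower in each preconditioned mouse than in each intact mouse, and the gap between preconditioned replicate 2 and intact replicate 1 was small. Between groups it differed by -0.77. The activator mean alone differed by -0.69, so most of that came from the activators, while the 4 repressors had differences of unlike sign.

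Between paralogs, Cry2 minus Cry1 was -0.02, -0.38 and -0.55 in intact mice and 0.13, 0.43 and 0.38 in preconditioned mice. Per3 minus Per1 was -0.09, -0.66 and -0.88 in intact mice and 0.42, 0.97 and 0.24 in preconditioned mice. In both pairs each preconditioned mouse lay above each intact one. The gene with a lower mean in preconditioned lungs was subtracted from the one with a higher mean, which favoured this separation. Cry2 and Per3 alone already lay fully apart. Of the pair differences no test was made, because the genes were grouped with these values known.

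Markers of many cell types had lower means in preconditioned lungs, those of the lung's own cells among them. Lower means were found for 5 of 5 alveolar type 2 markers (median log2 difference -0.28) and 4 of 4 of capillary endothelium (-0.31). For alveolar type 1 cells it was 3 of 4 (-0.32). Of the markers of monocytes and neutrophils 6 of 6 had lower means in preconditioned lungs, with a mean level over the list of 7.14 to 8.36 in intact and 6.47 to 6.68 in preconditioned mice. All 5 mesothelial markers were lower (7.93 to 8.29 against 6.80 to 7.52), as were the 3 measured markers of alveolar macrophages (7.75 to 8.58 against 7.25 to 7.32). All 5 markers of T and NK cells had lower means, with list levels of 7.05 to 7.89 in intact mice. Preconditioned replicates 2 and 3 were at 6.18 and 6.74, and preconditioned replicate 1 lay just under the lowest intact mouse. Club cell markers overlapped, at 12.42 to 12.59 and 12.32 to 12.80. The 3 measured B cell markers had lower means (median -0.14) with groups that overlapped, and of 4 measured fat markers 2 were lower and 2 higher. After cyclic loess Abca3, Cldn5, Cd79b and Scgb1a1 changed sign. The medians were then -0.15 for alveolar type 2, -0.18 for alveolar type 1 and -0.18 for capillary endothelium. A further quantile normalization gave -0.28, -0.22 and -0.28 in the same order. For monocytes and neutrophils the median was -1.19 after cyclic loess, against -1.17 in the main fit. No marker of these lists passed the adjusted threshold, none was at 0, and their part in the clock values was not tested.

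The stabilising loop and output factors had 11 of 12 listed genes measured, and none passed the adjusted threshold in limma. Their median log2 difference was 0.02, beside 0.01 over all genes, with 7 higher and 4 lower. With each array centred on its median the split was 5 higher and 6 lower with a median of -0.03, and the median was 0.10 after a further quantile normalization and 0.11 after cyclic loess. Dbp, a D-box activator and a direct target of CLOCK and BMAL1, was at 8.40, 7.75 and 7.49 in intact lungs and at 8.72, 8.89 and 9.03 in preconditioned lungs. All preconditioned mice lay above all intact mice, with the smallest gap again to intact replicate 1. The log2 difference of Dbp was 1.00 (SE 0.22, adjusted p = 0.0914), which exceeded in size that of each of the 7 core genes. It was 1.26 without intact replicate 1 (adjusted p = 0.0128). Leaving out this nearest intact mouse widened the difference by construction, so that call is no separate support. Leaving out any of the other 5 arrays gave 0.80 to 1.08, with adjusted p from 0.136 to 0.308.

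Nr1d2, which encodes the repressor REV-ERB beta, had a log2 difference of 0.37 (adjusted p = 0.312), and its groups overlapped because intact replicate 1 stood at 8.02. Bhlhe40, an E-box repressor, was at -0.31 (adjusted p = 0.254), and Rorb, an activating receptor, was at 0.18 (adjusted p = 0.418). The levels of Rorb were low, from 4.45 to 4.94, under the median of 5.95 over all genes. Nr1d1, which encodes REV-ERB alpha and is named here after its value was seen, was at -0.03 (adjusted p = 0.886), with levels of 9.38 to 9.54 in intact and 9.40 to 9.42 in preconditioned lungs. Its sign turned after a further quantile normalization and after cyclic loess.

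The kinases and ubiquitin ligases that control the turnover of PER and CRY proteins had 8 of 10 genes measured, 6 lower and 2 higher, with a median of -0.10 and none past the adjusted threshold. After a further quantile normalization and after cyclic loess 5 were lower and 3 higher, with medians of -0.05 and -0.04. Csnk1e, the kinase that marks PER proteins for degradation, was at 7.07, 7.20 and 7.16 in intact lungs and at 6.82, 6.86 and 6.88 in preconditioned lungs. The groups did not overlap, and the log2 difference was -0.29 (SE 0.09, adjusted p = 0.138). Its relative Csnk1a1 was at 0.16 (adjusted p = 0.375), Gsk3b, another clock kinase, at -0.30 (0.264) and the casein kinase 2 subunit Csnk2a1 at -0.20 (0.365).

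Of the cofactors and paralogs of the loop, 10 of 11 were measured, 8 lower and 2 higher with a median of -0.08, and again none passed. That median was 0.02 after a further quantile normalization and after cyclic loess, where 4 of the genes changed sign. Prkaa1, a catalytic subunit of the AMP-activated kinase that phosphorylates cryptochromes, was at 8.86, 8.93 and 9.03 in intact lungs and at 8.42, 8.43 and 8.55 in preconditioned lungs. These groups lay apart by 0.30, more than for any of the core genes, and the log2 difference was -0.47 (SE 0.09, adjusted p = 0.0860). Prkaa2, the other catalytic subunit, is named after its value was seen. It was at -0.08 (adjusted p = 0.737) with groups that overlapped. Ep300, a histone acetyltransferase recruited by CLOCK and BMAL1, was at -0.46 (SE 0.11, adjusted p = 0.109). Timeless was at 0.23 (adjusted p = 0.271) and the deacetylase gene Sirt1 at -0.19 (0.393).

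Genes that follow the clock in many tissues had 9 of 10 measured, all 9 with lower means, a median of -0.16 and none past the threshold; Tspan4 turned to a higher mean after a further quantile normalization and after cyclic loess. Lonrf3 was at -0.38 (SE 0.11, adjusted p = 0.136) with groups that did not overlap. Tsc22d3, which also responds to glucocorticoids, was at -0.29 (adjusted p = 0.296), the nuclear receptor gene Ppara at -0.16 (0.445) and the monooxygenase gene Fmo2 at -0.14 (0.461). Over the 38 measured genes of these clock lists together, 27 had lower and 11 higher means, which became 20 lower and 18 higher both after a further quantile normalization and after cyclic loess. The groups did not overlap for 9, beside 24.7% of all genes.

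**Figure D3:**
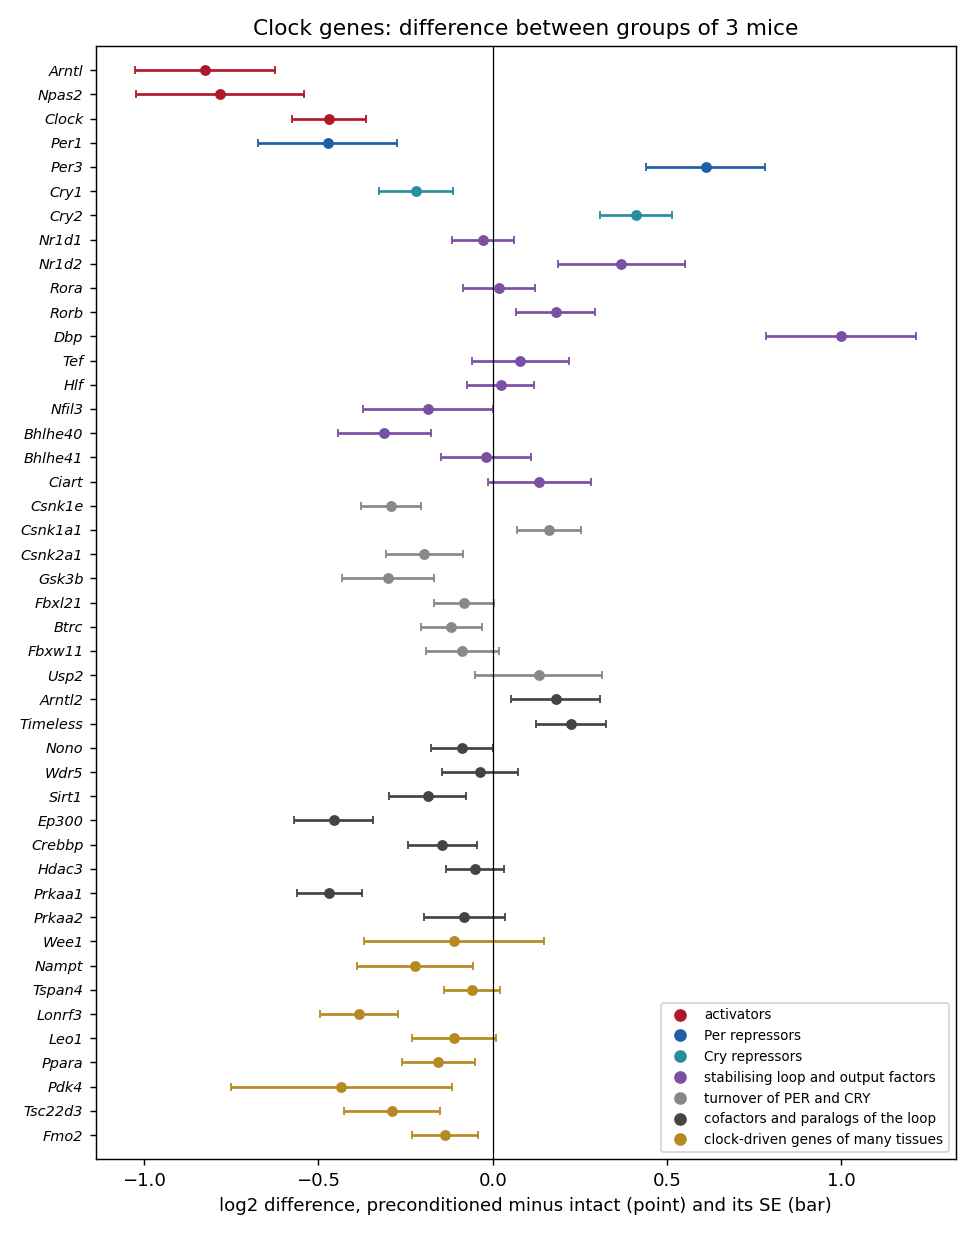
Log2 difference of preconditioned minus intact lungs (horizontal axis; point, with its SE as the bar) for the 7 core clock genes and 38 other clock genes, coloured by role, each from 3 mice in each group. Dbp lies farthest to the right, at 1.00, and Arntl and Npas2 farthest to the left, at -0.82 and -0.78.

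Signals that reach the loop through Per genes were described from 3 lists. Of the glucocorticoid response list 9 of 10 genes had lower means (median -0.52) and none passed, with Cdkn1a, a cell cycle inhibitor, at -1.39 (adjusted p = 0.0556), Dusp1, a phosphatase of MAP kinases, at -0.80 (0.0860), Map3k6 at -0.86 (0.0972) and Klf9, a transcription factor gene, at -0.57 (0.0994). Of the immediate early list 9 of 10 had lower means (median -0.46) and none passed, with Btg2, an antiproliferative gene, at -0.88 (adjusted p = 0.0556), Egr1 at -0.83 (0.0803), Fos at -1.06 (0.0860) and Sik1, a kinase gene, at -0.41 (0.143).

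Of the heat and cold responsive list, 8 of 9 genes were measured and 2 fell past the threshold in limma, beside 0.0586% of all genes that passed as lower: the chaperone gene Hspa1b (-2.55, adjusted p = 0.000557) and Chordc1, a partner of heat shock protein 90 (-0.88, adjusted p = 0.0399). Hspa8 was at -0.59 (adjusted p = 0.0556) and Hspa1a, whose near-identical copy is Hspa1b, at -1.16 (0.0803). Cirbp, a cold-induced RNA-binding protein gene that is known to act on Clock transcripts, was the only measured gene of the list with a higher mean and is named after its value was seen. It was at 7.13, 6.92 and 6.72 in intact lungs and at 7.39, 7.37 and 7.47 in preconditioned lungs, a log2 difference of 0.49 (SE 0.12, adjusted p = 0.101). Its groups did not overlap, and intact replicate 1 was again the closest intact mouse.

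Likeness of pattern was measured as the root mean square difference between profiles over the 6 arrays, each gene centred on its own mean. The genes compared were those above the median level, 11090 before predicted, small RNA and similar genes were left out by symbol. Orders count only the genes kept. For Npas2, the activator with the largest range over the mice, the closest were Mpzl2 (0.07), Fech (0.10) and Gapdh (0.12), while Arntl was at 0.20 with order 29. For Cry2 the closest were Msantd3 (0.02), Stk19 (0.02) and Cnbd2 (0.04), and Per3 was at 0.18 with order 923. For Per1 they were Cntn1 (0.10), Sgtb (0.10) and Fbxo33 (0.12), and Per3 was at 0.63 with order 10231. The nearest profiles of each of these 3 genes were of genes outside the loop. With so few loop genes among so many compared, that was likely beforehand and does not bear on likeness within the loop. The measure also sets genes of unlike range apart. Per1 and Per3 had unlike profiles.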

How the data were processed

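Lung RNA of 6 mice was measured on 1-colour whole-transcript arrays. The authors deposited log2 values made with RMA (background correction, quantile normalization, summary of probe sets), and limma is also named, per the submitters' processing notes. RMA is meant to give arrays a common distribution, which can hide a shift of most genes together. Over all 41345 deposited probe sets a difference between groups remained. Preconditioned arrays had the higher medians (5.39 to 5.40, intact 5.32 to 5.37) and the lower upper quartiles (6.94 to 6.95, intact 6.97 to 7.03). A further quantile normalization moved Clock from -0.47 to -0.38 and Per1 from -0.47 to -0.37. The source of this difference was not tested. Versions and genome build: not given in the sources used here. Arrays have no read depth.

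Of 41345 probe sets, 25335 were in the annotation table, 23521 with 1 symbol and 1814 with several, which were not used. A gene's brightest probe set was kept, giving 22180 genes. Preconditioned minus intact was fitted with limma (3.58.1, R 4.3.3; lmFit, eBayes) with no covariate or filter, Benjamini-Hochberg adjusted over all genes, with a threshold of 0.05. The fit was tested on simulated data. Promoters came from RefSeq (GRCm38.p6).

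Members and lists were chosen with earlier results of these data known. Named were all members, and up to 4 genes of each clock or input list by moderated t; exceptions are stated. A planned value of Arntl minus Per2 was not computed. Alternatives were 3 normalizations, a level filter, 2 variance models, a replicate block, 2 treatments of probe sets, a threshold of 0.1 and leaving out each array.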

Additional observations from a re-analysis of the deposited data

How the results depend on the processing

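Of the 16 alternatives, 6 leave the size of a difference as it is and bear only on its p, and each of the 7 clock genes kept its sign in the other 10. Past the threshold were 5 of them with array quality weights, which gave Arntl -0.97, Npas2 -0.92, Clock -0.52, Per3 0.73 and Cry2 0.44, 1 (Clock) at an adjusted p under 0.1, 4 without intact replicate 1, and 0 in the other alternatives. Cyclic loess gave Clock -0.33 and Per1 -0.34, against -0.47 for each in the main fit. Leaving out each array gave 0 to 4 clock genes, 0 to 3 other clock genes and 2 to 1228 genes over the whole table. Of the other clock genes 3 passed with array quality weights and 2 at an adjusted p under 0.1. The whole table gave 76 genes among those above the median level, 55 with an intensity trend and robust prior, 1125 with array quality weights and 642 at an adjusted p under 0.1. Why weights gave more calls, and why the left-out array gave more over the whole table, was not tested. The balance of the activators against the repressors, -0.77 between groups, lay between -0.97 and -0.63 when each array was left out, and moved by less than the spread between mice. Most of it was the activator mean, which differed by -0.69. With the replicate number as a block 4 genes passed over the whole table, against 21 without it, and 0 clock genes in either. The labels name no pairing of mice. Deviations of same-numbered arrays correlated across genes at -0.06, -0.31 and -0.06, and no array correlated best with its own number. Deviations within a group of 3 sum to 0 in each gene, so these values cannot exclude a pairing. The number of arrays limits the precision.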
